A study of Homo sapiens with 19 samples.

Results

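The 36 DNA replication genes described here encode the proteins that license, open, copy and finish replication origins, together with the enzymes that supply nucleotides. A probe set, the group of short probes that reports 1 transcript on the array, was taken as a member when the platform annotation named 1 of these 36 genes and no other gene. That gave 55 of the 22283 probe sets, and the 36 genes are 36 of 11963 named in this way. Messenger RNA had been profiled on 19 arrays, 1 for each of 19 lines, all MDA-MB-231 cells or cells derived from them. MDA-MB-231 is a human breast cancer line that lacks estrogen receptor and spreads to bone and lung in mice. Besides 1 array of the parental line there were 3 weakly bone-metastatic lines (2293, 2295 and 2296) and 4 strongly bone-metastatic lines (1833, 2274, 2268 and 2269). For lung there were 3 weakly metastatic lines (SCP21, SCP6 and SCP26) and 4 strongly metastatic lines (4142, 4173, 4175 and 4180). The arrays of 1833 and 4175 came from the original sublines after a short culture, and each of these lines had also given 1 modal-ploid and 1 hyper-ploid subline, the latter with raised DNA content. Of these, 2296 is the name in the title, and 2297 stands in its place in the label of the cell line and in the study design. All cells were grown in culture with serum and, per the labels, with selective drugs, whose names are not given for each line. Values of lines are given below in the order just used.

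Every group is therefore a set of lines with 1 array each, and no array repeats a line, so that each p-value measures the spread between the lines of a group. The deposited values are ratios of a probe set's signal to a divisor that is the same for all arrays of a set. The parental line, the 1833 pair and the bone lines formed 1 set of 10 arrays, and the 4175 pair and the lung lines formed another of 9 arrays with other divisors. A ratio below was divided by its array's median, so that 1 marks the middle of an array, and ratios are compared only inside a set. Differences are on the log2 scale, on which 1 unit is a doubling.

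DNA replication starts with licensing: the origin recognition complex, CDC6 and CDT1 load the MCM2-7 helicase onto origins in G1, and geminin (GMNN) blocks CDT1 until the next division. In S phase CDC7 kinase and cyclin-dependent kinases add CDC45 and GINS to the helicase, RPA coats the opened strands, primase and the polymerases copy them behind the PCNA clamp, and FEN1 and LIG1 join the pieces. Many of these genes are transcribed under E2F control as cells pass from G1 to S phase, so their messenger RNA is widely used as a sign of proliferation.

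Promoters are shown for the 3 members that passed a test below and for MCM6, a member with 2 copies of an E2F word. RefSeq promoter windows of GRCh38.p14, from 250 bases before to 50 after the start of transcription, were matched for 32 of the 36 members. MCM4, MCM5, RPA2 and RPA3 were not matched. Capitals mark CCAAT or its reverse ATTGG, the word bound by the factor NF-Y, and in MCM6 also the E2F words TTTGGCGC and, on the other strand and overlapping it, TTTCGCGC. The CDC6 stretch is chr17:40287739-40287878 on the plus strand. TK1 is at chr17:78187053-78187152, PRIM1 at chr12:56752324-56752383 and MCM6 at chr2:135876493-135876613, all on the minus strand, and each is written 5′ to 3′ along its gene.
CDC6: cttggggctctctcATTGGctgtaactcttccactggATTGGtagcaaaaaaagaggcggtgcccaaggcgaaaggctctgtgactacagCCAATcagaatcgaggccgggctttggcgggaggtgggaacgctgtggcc
TK1: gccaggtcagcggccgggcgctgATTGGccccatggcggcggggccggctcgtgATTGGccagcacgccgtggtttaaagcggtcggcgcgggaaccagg
PRIM1: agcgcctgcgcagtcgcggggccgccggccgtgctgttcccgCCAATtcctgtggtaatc
MCM6: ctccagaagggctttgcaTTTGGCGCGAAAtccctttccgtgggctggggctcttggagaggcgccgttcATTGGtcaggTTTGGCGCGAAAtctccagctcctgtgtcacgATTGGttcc

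Both strands were searched for the E2F words TTTGGCGC, TTTCGCGC, TTTCCCGC and TTTGCCGC. Of the 32 members with a window, 16 (50%) held 1 or more of them, against 3.99% of all 27305 genes in the table. CCAAT occurred in 20 members (62.5%), against 39.7% of genes. CDC6 held TTTGGCGC from position 8 after its start, outside the stretch printed, while neither the TK1 nor the PRIM1 window held any of the 4 words. These matches describe letters in a window and not binding.

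Signals were recovered from the ratios as described under the processing, and all 36 genes lay above their array's 40th percentile of signal on 19 of 19 arrays. Mean signals ran from 198 for ORC1 to 9963 for TYMS, and 33 of the 36 genes were brighter than the median of the 9548 genes tested, which was 346. The arrays differed in ways that ran with the groups. The trimmed mean signal was 498 to 499 on 15 arrays and 323 to 360 on the 4 arrays of ploidy sublines. Spiked hybridisation controls averaged 11.1 to 11.4 (log2 signal) on parental and bone arrays, 9.89 to 10.7 on lung arrays and 9.25 to 9.60 on ploidy arrays. A control probe set for 18S ribosomal RNA read 35.6 to 180.7 on parental, bone and ploidy arrays, 4229 to 10361 on 6 lung arrays, and 194.1 on SCP6, which stood apart from the other lung lines. VIM, CD44, KRT18, EGFR, CAV1 and ANXA1, all high in MDA-MB-231, were above the 40th percentile on 19 of 19 arrays, and PGR was above it on none. ESR1, the estrogen receptor gene, was above it on 16 arrays at a mean signal of 112, and ERBB2 and GATA3 were above it on all 19. Of 7 leukocyte markers measured, the defining PTPRC and LYZ were above the percentile on no array, CD3D and CD79A on 7 arrays each, CD14 on 13, LCP1 on 14 and HLA-DRA on 17.

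Individual lines differed in these genes, and 1 weakly lung-metastatic line was below the other lung lines. In SCP26 the median ratio of the 36 genes was 0.678, and 31 of 36 had a ratio below 1, against 50.7% of all genes. SCP26 was the lowest of the 7 lung lines for 22 members, against 20% of all genes. The other lung lines had member medians, as log2 ratios, of -0.03 (SCP21), 0.02 (SCP6), 0.18 (4142), 0.05 (4173), 0.02 (4175) and -0.11 (4180). The SCP6 value turned negative under trimmed-mean centring (-0.20) and quantile normalisation (-0.18). In 4142 28 members were above 1, and it was the highest lung line for 13, against 13.3% of all genes. By role medians the MCM genes and the pair FEN1 and LIG1 were deepest in SCP26, with -0.74 and -0.73 on the log2 scale. The median of CDC7, CDC45, GINS1 and GINS2 was -0.13. Within that role CDC45 was low in SCP26, at a ratio of 0.442, against 1.005 for CDC7, 0.961 for GINS2 and 0.870 for GINS1. The mitosis genes had a median of -0.23 over 29 genes in SCP26. It was nearly as low in SCP21 (-0.20), whose replication median was -0.03, and -0.04 to 0.26 in the other lung lines. SCP26 also had the highest median of the 5 leukocyte markers tested among the lung lines (0.79 on the log2 scale, others -0.23 to 0.10). Of these 5, HLA-DRA was highest in SCP6 (5.05, against 3.20 in SCP26) and LCP1 in 4142 (1.53, against 0.779 in SCP26). The log2 3′ to 5′ signal ratio of ACTB, a sign of RNA quality, was 0.31 in SCP26. It was 0.40 in SCP21, 0.085 in SCP6 and -0.0084 to 0.19 in the strong lines. The part of these markers and of RNA quality in the low values of SCP26 was not tested.

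Among the bone lines, 2296 had the lowest member median, a log2 ratio of -0.29, with 31 of 36 members below 1, against 54.3% of all genes. Its median of the 5 leukocyte markers tested was also the highest in its array set (1.53, against -0.03 in 2293 and 0.28 in 2295). The part of this in the low values of 2296 was not tested. It was the lowest bone line for 14 members, against 20.5% of all genes. The other 2 weak lines had median ratios of 0.998 (2293, 17 members above 1) and 1.11 (2295, 28 members above 1), so the lowest and the highest bone lines were both weak ones. As log2 ratios, the strong bone lines had -0.04 (1833), -0.06 (2274), -0.05 (2268) and -0.22 (2269). Group means of these medians were -0.04 ± 0.22 (SD, n = 3) for weak bone, -0.09 ± 0.09 (SD, n = 4) for strong bone, -0.19 ± 0.32 (SD, n = 3) for weak lung and 0.03 ± 0.12 (SD, n = 4) for strong lung. In both organs the weak and strong lines overlapped. In these bulk samples fewer cells in S phase and less of these RNAs in each cell cannot be told apart. Within groups the members had a median SD of 0.29 (log2), against 0.33 for all genes and 0.25 for genes brighter than the median.

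**Figure D1:**
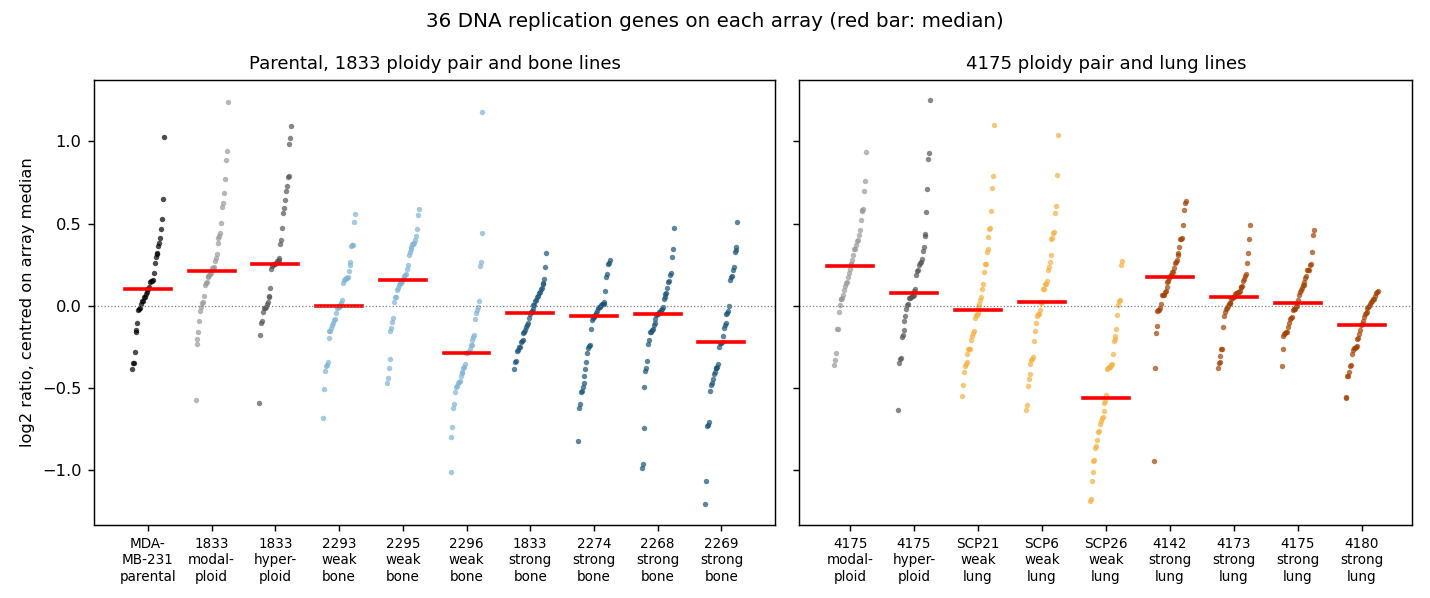
Each point is 1 of the 36 DNA replication genes on 1 array, as the log2 ratio centred on the array median (vertical axis), with arrays along the horizontal axis in their 2 sets. The red bar is the median of the 36 genes, which is lowest in SCP26 at -0.56 among the lung lines and in 2296 at -0.29 among the bone lines.

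Strongly and weakly bone-metastatic lines were compared to ask which genes go with the capacity to colonise bone. Of the 36 replication genes, CDC6 was higher in the strong lines and TK1 was lower, and the other 34 did not pass the test. This is 2 of 36 members, where 12% of all genes were called in either direction, 7.13% higher and 4.89% lower. Of all calls 59.3% were higher, against 48.1% under trimmed-mean centring and 50% under quantile normalisation. In limma, with Benjamini-Hochberg adjustment over 9548 genes and a threshold of 0.05, the members' adjusted p-values ran from 0.0148 to 0.986. The members' median log2 difference was -0.13, against 0.00 for all genes, with 12 positive and 24 negative. At an unadjusted p under 0.05 there were 10 members, against 27.2% of all genes. The 2 groups did not overlap for 8 members (29.3% of all genes): CDC6, ORC1, RRM2 and GMNN were higher in every strong line than in any weak line (16% of all genes), and MCM5, TK1, CDT1 and RPA3 lower (13.4%). For MCM5 this held for the brighter probe set only. HLA-DRA, a leukocyte marker that tumour cells can also make, and LCP1 were lower in the same contrast, with log2 differences of -3.08 and -2.03. The summed signal of the 7 leukocyte markers was 2557 to 3863 in weak and 547 to 707 in strong bone lines, and 2940 on the parental array. HLA-DRA was by far the brightest of the 7, with a mean signal of 1090 over all arrays, against 8.33 to 228 for the others. The part of these markers in the differences below was not tested.

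CDC6, the loader that brings the MCM helicase to the origin recognition complex, had ratios of 0.624, 0.770 and 0.650 in the weak lines and of 1.25, 1.21, 0.946 and 1.11 in the strong lines. Every strong line was above every weak line. The difference was 0.73 (SE 0.20, limma adjusted p = 0.0350), with means of 0.681 ± 0.0779 (SD, n = 3) and 1.13 ± 0.136 (SD, n = 4). The other CDC6 probe set on the array gave 0.83 and an adjusted p of 0.0139 in the limma fit over 14357 probe sets. The call is narrow. Without 2268 it held (adjusted p = 0.0397), and without any 1 of 2293, 2295, 2296, 1833, 2274 or 2269 the adjusted p was 0.0543 to 0.121.

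TK1, the thymidine kinase that salvages thymidine for DNA synthesis, ran the other way. Its ratios were 1.19, 1.3 and 1.36 in the weak lines and 1.04, 0.662, 0.710 and 0.717 in the strong lines. No strong line reached a weak one, and 1833 stood above the other strong lines. TK1 fell by 0.74 on the log2 scale (SE 0.17, limma adjusted p = 0.0148), from a mean of 1.28 ± 0.0866 (SD, n = 3) to 0.782 ± 0.172 (SD, n = 4). Without 2295 the adjusted p was 0.0544 and without 2296 it was 0.0582.

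The remaining nucleotide enzymes did not follow TK1. RRM2, the small subunit of ribonucleotide reductase whose level limits deoxynucleotide supply in S phase, had ratios of 0.761, 0.799 and 0.495 in the weak and 1.08, 0.991, 1.11 and 1.26 in the strong lines. The groups did not overlap, but the difference of 0.72 (SE 0.28) had an adjusted p of 0.117. The other, dimmer RRM2 probe set gave a smaller difference of 0.40, also without overlap (limma adjusted p = 0.370 over 14357 probe sets). RRM1, the large subunit, had -0.03, and TYMS, which makes thymidylate from deoxyuridylate, had 0.24.

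Licensing genes were divided. Besides CDC6, the differences were 0.45 for GMNN, 0.40 for ORC1, 0.21 for ORC6, -0.05 for ORC2, -0.14 for ORC5 and -0.50 for CDT1, none of which passed. GMNN, the inhibitor of CDT1, had ratios of 0.780, 0.948 and 0.723 in the weak and 1.07, 1.15, 1.23 and 0.999 in the strong lines. CDT1 itself had 0.994, 1.04 and 1.18 in the weak and 0.866, 0.766, 0.505 and 0.965 in the strong lines. Neither pair of groups overlapped, GMNN being the higher in strong lines and CDT1 the lower, with adjusted p-values of 0.0982 and 0.271.

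All 6 MCM helicase genes had a negative difference, also under 4 other ways of scaling the arrays, and none of the 6 passed the test. MCM4, the nearest to 0, was positive without 2293 (0.015), without 2295 (0.12) and without 2269 (0.16). These MCM4 values are of its brightest probe set, and the dimmer MCM4 probe sets gave differences of -0.49, -0.37 and -0.32 over all bone lines. MCM4 as the exception thus depends on the probe set. The median of the 6 MCM genes was -0.40. MCM5 had ratios of 1.42, 1.26 and 0.820 in the weak and 0.789, 0.723, 0.760 and 0.602 in the strong lines. MCM7 had 1.29, 1.5 and 0.968 in the weak and 0.767, 0.695, 0.987 and 0.723 in the strong lines. The MCM5 groups did not overlap, while for MCM7 the weak line 2296 fell just below the strong line 2268. In the other, dimmer MCM5 probe set the groups did overlap, with 2296 at 0.731, below 1833 (0.859) and 2268 (0.863). The differences were -0.67 for MCM5 (SE 0.28, adjusted p = 0.140) and -0.65 for MCM7 (SE 0.24, adjusted p = 0.103), with -0.54 for MCM6, -0.26 for MCM2, -0.23 for MCM3 and -0.01 for MCM4. MCM7 passed under trimmed-mean centring (adjusted p = 0.0443) and under quantile normalisation (0.0376), where MCM6 passed too.

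The genes of the fork itself gave no call for bone. POLD1, the catalytic subunit of polymerase delta, had the widest range of any member across the 7 bone lines, 3.19-fold. Its ratios were 1.12, 1.38 and 0.847 in the weak and 0.832, 0.566, 0.961 and 0.433 in the strong lines. They overlapped through 2296 and 2268, and the difference was -0.72 (SE 0.32, adjusted p = 0.172). POLA1, POLE2 and PRIM1 had -0.29, -0.20 and -0.17. RFC2, a subunit of the clamp loader, had 0.898, 1.3 and 2.26 in the weak and 0.792, 0.821, 0.903 and 1.13 in the strong lines, a difference of -0.62 (SE 0.28, adjusted p = 0.181). The weak line 2296 was far above the others, and without it the difference was -0.26 (limma adjusted p = 0.591). A second RFC2 probe set, of almost equal brightness, did not show this, with 1.05, 1.35 and 1.26 in the weak lines and a difference of -0.46. RFC4, a subunit of the same complex, was the steadiest member across bone lines, with a 1.23-fold range.

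Of the single-strand binding subunits, RPA1 had 0.777, 0.722 and 0.60 in the weak and 1.10, 0.970, 1.04 and 0.769 in the strong lines. Only 2269 fell within the weak range, and the difference of 0.47 (SE 0.19) had an adjusted p of 0.143. The other RPA1 probe set, nearly as bright, gave 1.08, 1.06 and 0.697 in the weak and 0.952, 0.90, 0.876 and 1.05 in the strong lines, a difference of 0.03. RPA2 had 0.05 and RPA3 -0.38. CDC45, a helicase partner, had ratios of 1.11, 1.24 and 0.820 in the weak and 0.929, 0.742, 0.769 and 0.768 in the strong lines, with a difference of -0.38. GINS1, GINS2 and CDC7 had 0.29, -0.07 and -0.01, FEN1 had -0.13 and LIG1 -0.22. PCNA and RFC1, RFC3 and RFC5 were between -0.23 and 0.28. The dimmer RFC5 probe sets gave 0.52 and 0.49.

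**Figure D2:**
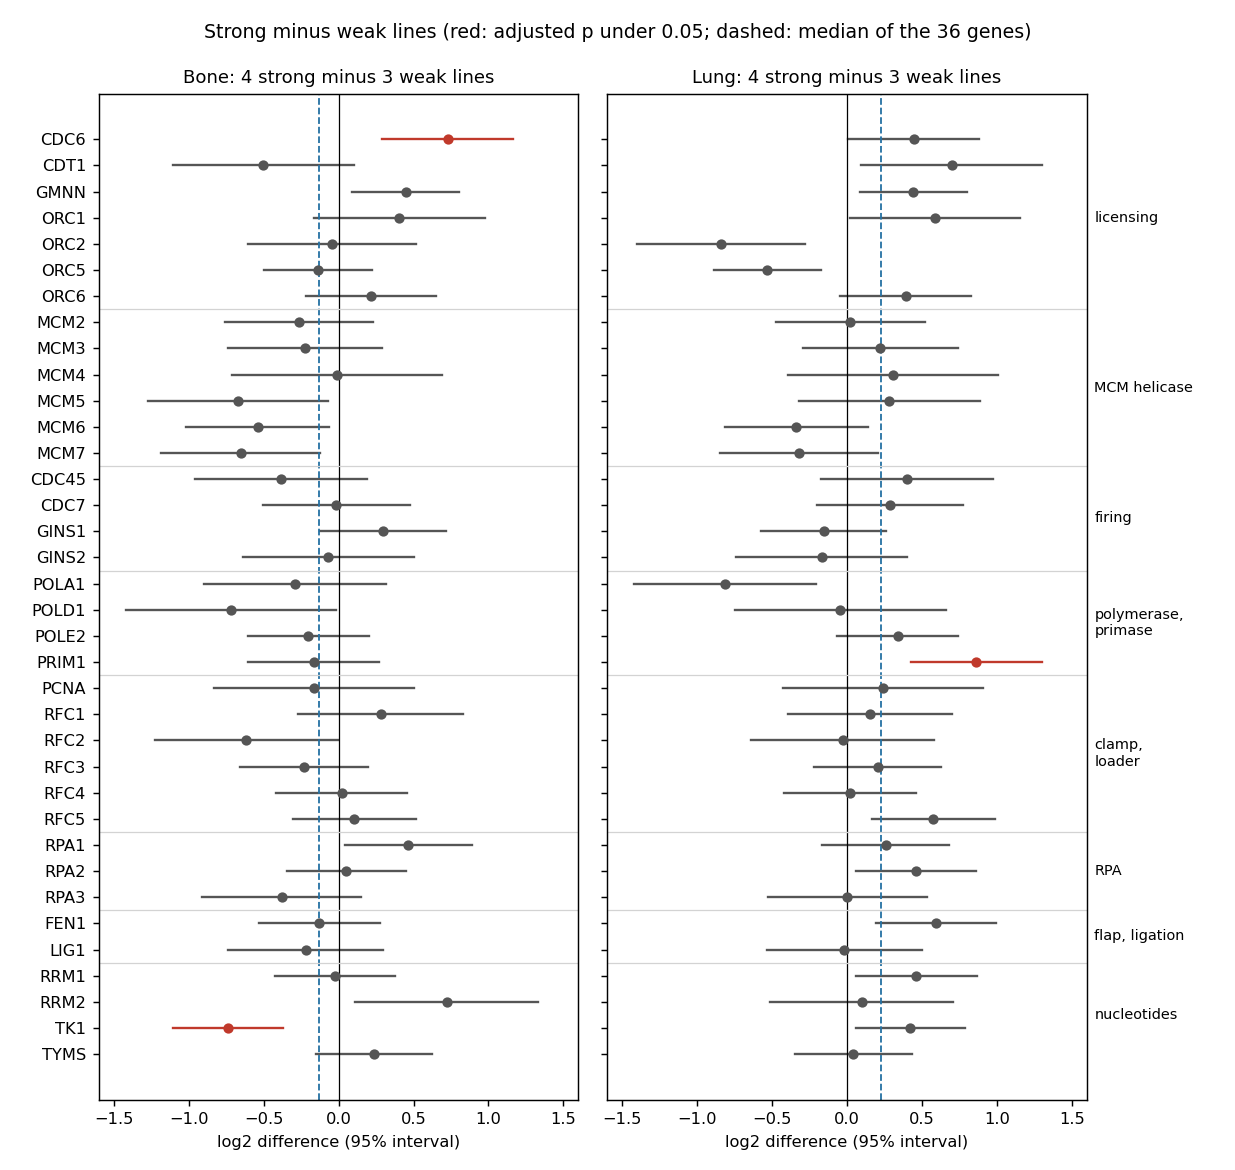
Strong minus weak log2 difference of each of the 36 genes (points) with its 95% interval from limma (bars), grouped by role, for bone on the left and lung on the right. Red marks an adjusted p under 0.05, which is CDC6 and TK1 for bone and PRIM1 for lung, and the dashed line is the median of the 36 genes, -0.13 and 0.23.

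In the lung lines 1 replication gene passed the test. PRIM1, the catalytic subunit of the primase that lays down RNA primers, was higher in strongly than in weakly lung-metastatic lines, and 0 members were lower. This is 1 of 36, against 9.05% of all genes called in either direction, 3.46% higher and 5.59% lower. Of all calls 38.2% were higher, against 48.5% under quantile normalisation. The members' median was 0.23, against -0.01 for all genes, with 26 positive and 10 negative, and 13 members had an unadjusted p under 0.05, against 24% of all genes. Without SCP26 the members' median was 0.02, and without SCP6, the line set apart by the 18S control, it was 0.31. The groups did not overlap for 9 members (20% of all genes): RFC5, ORC6, TK1, POLE2, FEN1, GMNN and PRIM1 were higher in all strong lines (8.61% of all genes), and ORC2 and ORC5 lower (11.4%). For FEN1 and RFC5 this held for the brightest probe set only. PECAM1, an endothelial marker, was higher in strong lung lines (1.26, limma adjusted p = 0.0183) and lower in strong bone lines (-1.72, limma adjusted p = 0.00313), and the collagen gene COL1A1 was higher in strong lung lines (1.05, limma adjusted p = 0.0218). All 4 endothelial and stromal markers that could be tested had a positive difference in lung, with a median of 0.76, while VWF, CDH5 and LUM were above the 40th percentile on no array. The summed signal of 8 endothelial and stromal markers was 662 to 870 in weak and 1178 to 1453 in strong lung lines, and their part in the differences was not tested.

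PRIM1 had ratios of 0.784, 0.645 and 0.497 in the weak and of 1.54, 1.06, 1.09 and 0.973 in the strong lung lines. All 4 strong lines were above the weak ones, with 4142 the highest and SCP26 the lowest. The difference was 0.86 (SE 0.20, limma adjusted p = 0.020), from a mean of 0.642 ± 0.143 (SD, n = 3) to 1.17 ± 0.254 (SD, n = 4). Without SCP26 it was 0.69 with an adjusted p of 0.0569, without SCP6 the adjusted p was 0.0435, and a fit to the 7 lung lines alone gave 0.103. POLA1, the polymerase alpha subunit that extends the primer made by PRIM1, had 2.14, 2.06 and 1.02 in the weak and 1.12, 1.01, 0.914 and 0.744 in the strong lines. SCP21 and SCP6 were above all other lung lines, and SCP26 lay within the range of the strong ones. The difference was -0.82 (SE 0.28, adjusted p = 0.0920), and without SCP26 it was -1.16 with an adjusted p of 0.0134.

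None of the 4 genes of the origin recognition complex passed in lung, and 2 had positive and 2 negative differences. ORC2, one of its core subunits, had ratios of 1.73, 1.73 and 1.21 in the weak and 1.08, 0.788, 0.834 and 0.758 in the strong lines. ORC1, the subunit that comes and goes with the cell cycle, had 0.968, 1.01 and 0.521 in the weak and 1.5, 1.33, 1.25 and 0.837 in the strong lines. ORC2 was lower in every strong line, and ORC1 was the higher in all but 4180. The differences were -0.84 for ORC2 (SE 0.26, adjusted p = 0.0623) and 0.59 for ORC1 (SE 0.26, adjusted p = 0.193), with -0.53 for ORC5 (adjusted p = 0.0668) and 0.39 for ORC6. Without SCP26, ORC2 and ORC5 passed as lower, ORC2 with an adjusted p of 0.0434.

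CDT1, GMNN and CDC6 each had a positive difference in lung. CDT1 had ratios of 0.815, 0.713 and 0.549 in the weak and 1.56, 1.41, 0.893 and 0.776 in the strong lines. It was high in 4142 and 4173, while 4180 fell inside the weak range, and the difference was 0.70 (SE 0.28, adjusted p = 0.145). GMNN had 0.44 and CDC6 0.44, neither passing, so that for GMNN the bone and lung differences were nearly equal. The other CDC6 probe set, nearly as bright, gave 0.21 in lung, and without SCP26 the brighter one gave 0.22.

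FEN1, the nuclease that trims the flaps of lagging-strand fragments, had 0.789, 0.80 and 0.567 in the weak and 1.06, 1.13, 1.14 and 0.964 in the strong lung lines. The strong lines were all above the weak ones, with a difference of 0.59 (SE 0.19, adjusted p = 0.0668). The other FEN1 probe set, nearly as bright, gave a difference of 0.38. It put SCP6 at 1.14, above every strong line (0.947, 1.08, 1.04 and 0.978). FEN1 passed under trimmed-mean centring, quantile normalisation, a variance trend and a filter on 10 arrays, with adjusted p-values of 0.0114 to 0.04998. RFC5 of the clamp loader had 0.834, 0.898 and 0.664 in the weak and 1.40, 1.06, 1.35 and 0.972 in the strong lines, a difference of 0.58 (adjusted p = 0.0781). The other RFC5 probe sets gave 0.36 and 0.41, and in each of them SCP6 was above a strong line. RPA2 had 1.07, 0.658 and 0.815 in the weak and 1.32, 1.09, 1.19 and 0.993 in the strong lines. SCP21 overlapped the strong lines here, and the difference was 0.46 (adjusted p = 0.147). Without SCP21, RPA2 passed as higher.

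MCM genes were split in lung, with 4 positive and 2 negative differences from -0.34 for MCM6 to 0.31 for MCM4, and none passed. MCM4 ranged 3.11-fold over the lung lines, from 0.439 in SCP26 to 1.37 in SCP6, which are both weak lines. CDC45 had 0.833, 0.968 and 0.442 in the weak and 1.05, 1.05, 1.03 and 0.677 in the strong lines, with a difference of 0.40. TK1 had 0.42, RRM1 0.46, RRM2 0.10 and TYMS 0.04, and POLD1, LIG1, RFC2, RFC4 and RPA3 were between -0.04 and 0.02. The other 8 members, CDC7, GINS1, GINS2, POLE2, PCNA, RFC1, RFC3 and RPA1, were between -0.17 and 0.34.

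Whether the strong-against-weak difference itself differs between organs was tested in the same limma fit, where the divisors of both array sets cancel. TK1 and PRIM1 differed, both more negative in bone than in lung, which is 2 of 36 members against 12.1% of all genes, 7.3% more positive and 4.84% more negative. Of all calls 60.1% were more positive in bone, against 49.6% under trimmed-mean centring and 49.2% under quantile normalisation. TK1 had -1.16 (SE 0.24, adjusted p = 0.00825), from -0.74 in bone and 0.42 in lung. Its ratios in lung lines were 0.899, 0.752 and 0.906 in the weak and 1.14, 1.25, 1.16 and 1.02 in the strong lines, so that the strong lines were the higher in lung and the lower in bone without overlap in either. It passed in 23 of 23 alternatives, with adjusted p-values of 0.00267 to 0.0238. PRIM1 had -1.03 (SE 0.29, adjusted p = 0.0347), with bone ratios of 1.02, 1.19 and 0.868 in the weak and 1.05, 0.838, 0.894 and 0.858 in the strong lines. Its bone groups overlapped. The PRIM1 call held without 2296, 1833, SCP21 or 4180, and without any 1 of 2293, 2295, 2274, 2268, 2269, SCP6, SCP26, 4142, 4173 or 4175 the adjusted p was 0.0501 to 0.0892.

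Several further differences were of similar size and did not pass. CDT1 had -1.20 (SE 0.39, adjusted p = 0.0664), MCM5 -0.95 (SE 0.39, adjusted p = 0.139), ORC2 0.80 (SE 0.36, adjusted p = 0.183) and CDC45 -0.78 (SE 0.37, adjusted p = 0.202). Over the 36 members the median was -0.31, against 0.02 for all genes, and 25 were negative. Without SCP26 the median was -0.10. Members with an unadjusted p under 0.05 numbered 6, against 27% of all genes.

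**Figure D3:**
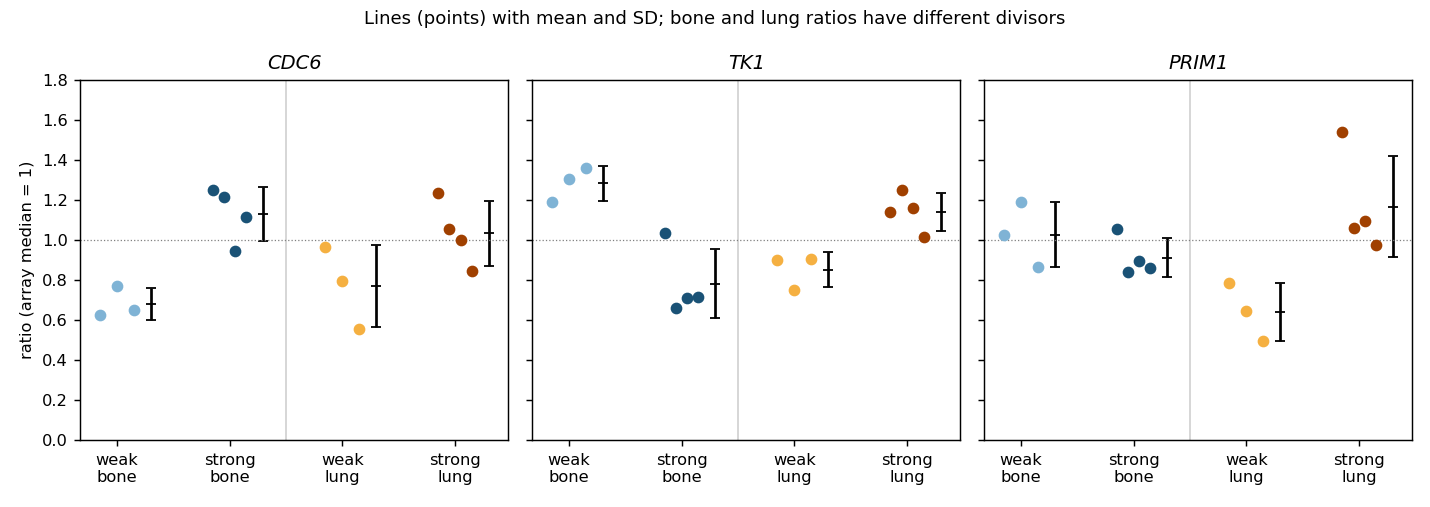
Ratios of CDC6, TK1 and PRIM1 (vertical axis, array median set to 1) in each weak and strong line of bone and lung, 1 point a line, with the group mean and SD in black. Weak and strong lines do not overlap for TK1 in either organ, with opposite order, and the levels of bone and lung lines cannot be set against each other because their divisors differ.

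The hyper-ploid and modal-ploid sublines were compared to ask what goes with a gain in ploidy. None of the 36 replication genes passed, with limma adjusted p-values of about 1 for each, and 0% of all 9548 genes were called. At an unadjusted p under 0.05 there were 0 members, against 4.61% of all genes. With 2 sublines in each group and the line of origin as a block, the median 95% half-width for a member was 0.65 before any adjustment for the number of genes tested, so that only larger changes could have been called. The 1833 pair gave a median difference over members, hyper-ploid minus modal-ploid, of 0.03, the same as for all genes, with 19 higher and 17 lower. The 4175 pair had -0.10, against -0.05 for all genes, with 12 higher and 24 lower. Members spread less than genes at large: over members the SD was 0.22 (1833) and 0.30 (4175), against 0.54 and 0.62 over all genes, many of which were dimmer.

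In the 1833 pair 0 of 36 members differed by over 1.5-fold, against 15.1% of all genes, and in the 4175 pair 2 did, both lower, against 22.4% of all genes, 11.4% lower. These were PCNA, the sliding clamp, and RFC5. PCNA had ratios of 1.17 (modal-ploid) and 0.992 (hyper-ploid) in 1833 and of 1.62 and 1.04 in 4175. RFC5 had 1.85 and 1.66 in 1833 and 1.38 and 0.877 in 4175. The mean log2 difference was -0.44 (SE 0.26) for PCNA and -0.40 (SE 0.27) for RFC5, and these probe sets were lower in the hyper-ploid subline of each line. Another RFC5 probe set had 0.9998 and 1.19 in 1833 and 1.33 and 0.984 in 4175, a mean of -0.09, so the direction in 1833 depends on the probe set.

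GINS1 (-0.34, SE 0.26) and MCM4 (-0.33, SE 0.25) were also negative in both pairs. ORC2 (0.43, SE 0.25) and MCM7 (0.39, SE 0.26) were positive in both. ORC2 ratios went from 1.3 to 1.62 in 1833 and from 0.781 to 1.14 in 4175, and MCM7 ratios from 1.01 to 1.20 and from 1.27 to 1.86. One sign in both pairs was seen for 23 of 36 members, 9 higher and 14 lower, against 47.5% of all genes. By the brightest probe sets the MCM complex was not of 1 sign: MCM2, MCM5 and MCM7 were higher in both hyper-ploid sublines, and MCM4 and MCM6 lower in both. The dimmer MCM5 probe set was lower in hyper-ploid 1833 (from 1.92 to 1.75) and higher in hyper-ploid 4175 (from 1.86 to 2.26). A dimmer MCM4 probe set was higher in both (from 1.03 to 1.08 and from 1.23 to 1.28), and the remaining MCM4 probe sets were lower in both. For MCM4 and MCM5 the direction thus depends on the probe set. CDC6, TK1 and PRIM1 had -0.10, -0.10 and 0.17 in 1833 and -0.02, -0.20 and 0.07 in 4175.

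**Figure D4:**
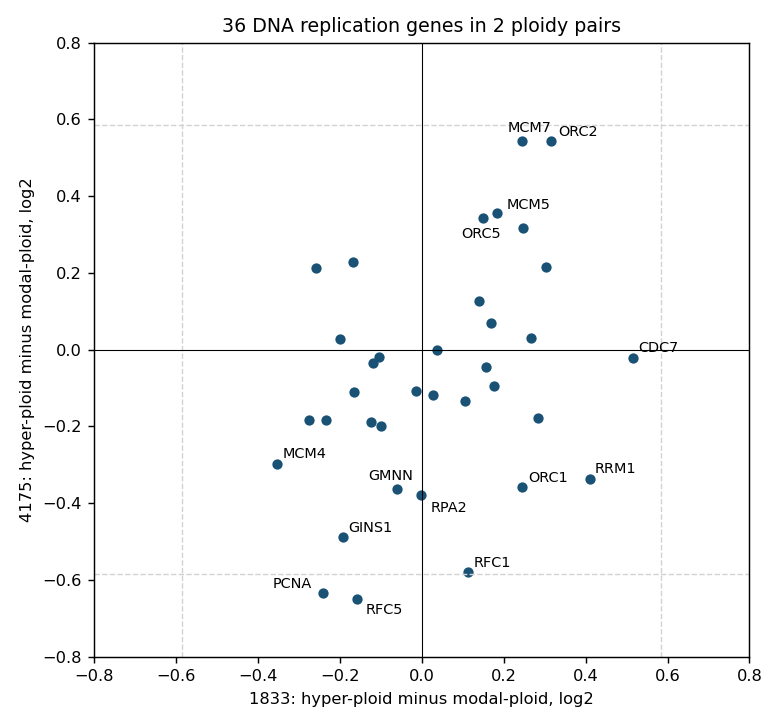
Hyper-ploid minus modal-ploid log2 difference of the 36 genes in the 1833 pair (horizontal axis) and the 4175 pair (vertical axis), 1 point a gene. Dashed lines mark 1.5-fold, which no gene passed in 1833 and which PCNA and RFC5 passed downward in 4175.

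Set against their line of origin, all 4 ploidy sublines had more members higher than lower. The members' median difference was 0.27 for modal-ploid 1833, with 31 of 36 higher (52.5% of all genes), and 0.31 for hyper-ploid 1833, with 29 higher (53.6%). In 4175 it was 0.19 for the modal-ploid subline, with 28 higher (55%), and 0.09 for the hyper-ploid subline, with 21 higher (51.2%). The modal-ploid 4175 value rested on the scaling of the arrays: it was 0.0059 with 18 members higher under trimmed-mean centring and 0.01 with 19 higher under quantile normalisation. Hyper-ploid 1833 had 0.13 with 22 higher under quantile normalisation, and hyper-ploid 4175 had 19 higher with log2(signal + 16) and with no further centring. POLD1 was higher in all 4, by 1.04 and 1.29 in 1833 and by 1.02 and 1.33 in 4175, modal-ploid first. LIG1, the ligase that seals lagging-strand fragments, had 1.16 and 1.32 in 1833 and 0.76 and 0.71 in 4175, and MCM5 had 0.94 and 1.13, and 0.65 and 1.004. Each such difference sets 1 array against 1, so there is no replicate check. The ploidy arrays also had the lower overall signals and hybridisation controls given above, and the 2 cannot be told apart.

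The parental line could be set against the bone lines only. It was above all 7 for 8 members, MCM3, MCM4, MCM6, PCNA, ORC1, ORC2, TYMS and CDT1, against 15.7% of all genes. For MCM4 the margin was small (1.11, against 1.10 in 1833). In 1 dimmer MCM4 probe set the parental line (1.24) was below 2295 (1.26), and in the remaining ones it was above all bone lines. Below all 7 was 1 member, RPA3, against 10.6% of all genes, and 27 were within their range. MCM6 stood out, with a parental ratio of 2.04 against 1.16, 1.14 and 0.781 in weak and 0.891, 0.710, 0.599 and 0.612 in strong bone lines.

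Other genes of the pathway and of the cell cycle were read from lists for comparison. Of 36 further replication genes 30 were tested. In bone 3 were higher (7.13% of all genes) and 1 lower (4.89%), with a list median of -0.14. In lung 0 were higher (3.46% of all genes) and 2 lower (5.59%), with a median of 0.12. GINS4, another subunit of the complex that holds GINS1 and GINS2, was higher in strong bone lines by 1.55 (SE 0.25, limma adjusted p = 0.00235). Its ratios were 0.410, 0.418 and 0.388 in the weak and 1.05, 1.24, 1.49 and 1.02 in the strong lines, with no overlap, whereas GINS1 and GINS2 did not pass. TIPIN, a fork protection factor, was higher by 0.94 and DUT, which removes dUTP, fell by 0.66.

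ORC4, a core subunit beside ORC2 and ORC5, was higher in strong bone lines by 0.53 and lower in strong lung lines by a log2 difference of -0.92, and the organs differed (1.45, SE 0.20, limma adjusted p = 0.000902). In lung, POLA2, the partner subunit of POLA1, was lower, with -1.24 (SE 0.28, adjusted p = 0.0159). Its ratios were 2.01, 2.38 and 1.13 in the weak and 0.768, 0.888, 0.786 and 0.574 in the strong lines. POLA2, POLA1 and PRIM1 belong to 1 complex, and in these lines POLA2 and PRIM1 passed with opposite signs.

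Of 27 G1 and S phase control genes 24 were tested. CCNE1, the cyclin that drives S phase entry with CDK2, was lower in strong lines of both organs, by -0.87 in bone (adjusted p = 0.0379) and -1.04 in lung (adjusted p = 0.0203). CDK4 was lower in strong bone lines (-0.81), and CDK2 was higher in strong lung lines (0.71). So 0 of 24 were called higher and 2 lower in bone, and 1 each in lung. Of all genes 12% were called in either direction in bone and 9.05% in lung. The organs differed for CDK6 (2.81), CDKN1B (-1.01), MYBL2 (-1.30), CDK2 (-1.13) and CDK4 (-1.17), of 24 tested, against 12.1% of all genes. Of 30 mitosis genes 29 were tested. CDC20, an activator of the anaphase-promoting complex, was higher in strong lines of both organs, by 1.04 in bone and 0.95 in lung. KIF2C was higher (0.69) and ESPL1 lower (-0.88) in bone, and NEK2 was higher in lung (0.50). With CDC20, 2 of 29 mitosis genes were called higher and 1 lower in bone, against 12% of all genes in either direction. In lung 2 were called higher and 0 lower, against 9.05%. The mitosis list had medians of 0.04 in bone and 0.35 in lung, where the 36 replication genes had -0.13 and 0.23. No gene of these 3 lists passed between ploidy sublines, where a negative difference was seen for 21 of 24 G1 and S phase control genes, 23 of 29 mitosis genes and 21 of 30 further replication genes, against 52.2% of all genes.

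More than 1 kept probe set was present for 13 of the 36 members. In lung their differences had 1 sign for all 13. In bone the signs differed within FEN1, RFC1, RFC3 and RRM1, and between organs within RFC1, RFC3, RFC5 and RPA1, and between ploidy sublines within MCM4 and RRM1, so for these genes the direction depends on the probe set. MCM4 had 4 kept probe sets, and 1 of the dimmer ones passed between organs, with -1.001 (limma adjusted p = 0.0271 over 14357 probe sets), where the brightest gave -0.32.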

How the data were processed

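Total RNA of 19 lines had been labelled as biotinylated cRNA and hybridised to 1 array each, per the labels' protocols. The authors deposited a linear ratio for each probe set and array, and the divisor was inferred from the values. In the set of 10 arrays 91.6% of probe sets had a median ratio of 1, so that the divisor was the set's own median, while in the set of 9 only 0.0224% did and the origin of the divisor is unknown. Software for image analysis and normalisation: not given in the sources used here. No depth applies to arrays, and the number of lines limits the precision.

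From the deposited ratios, log2 values were centred on each array's median. Signals were recovered as whole steps of 0.1 for 22275 of the 22283 probe sets (tolerance 0.01, rising to 0.05 steps). They served for filtering and brightness and gave the control and summed marker signals. The alternatives with log2(signal + 16), trimmed-mean centring, quantile normalisation and a variance trend also used them. A probe set was kept if its signal exceeded the 40th percentile of the array for 2 or more of the 19 arrays (52 of the 55 member probe sets did), and the brightest of a gene stood for it, which left 9548 genes. Of the probe sets 19071 had 1 gene symbol in the platform annotation, 1043 had several and 2169 none. Differences were fitted with limma 3.58.1 in R 4.3.3 (lmFit and eBayes) over the 14 weak and strong lines, with 1 mean per group, 10 residual degrees of freedom and a prior of 2.50, and p-values were adjusted by Benjamini-Hochberg with a threshold of 0.05. The 4 ploidy sublines were fitted with a block for the parent line, since the labels derive 1 of each kind from 1833 and from 4175, leaving 1 residual degree of freedom and a prior of 4.04. The fits were tested on simulated data. The members and lists were chosen with earlier results of these data known. Full statistics were given for members that passed and for the 6 largest differences in each comparison, line values for at least the most different member of each role, and of the other lists at most 6 genes that passed. Alternatives were log2(signal + 16), no centring, trimmed-mean centring (2% at each end), quantile normalisation, other filters, other summaries of probe sets, a variance trend, 1 organ alone, no block and leaving out each line.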

Additional observations from a re-analysis of the deposited data

Results flagged for a closer look

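Single lines stood apart from the rest of their group in 6 of 74 groups of 4 lines tested (each member and the members' median in the 2 strong groups) by Dixon's ratio, which chance alone gives in about 1 group in 20. Among the strong bone lines, CDC45 had a ratio of 0.929 in 1833, above the others, ORC1 had 1.42 in 2269, above the others, and the median over the 36 genes was lowest in 2269, at a ratio of 0.857. Among the strong lung lines, 4180 had the lowest CDC45, at 0.677, and the lowest TYMS, at 0.956, and 4142 had the lowest RPA3, at 0.521.

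The strong-against-weak difference differed between bone and lung for TK1 (-1.16, limma adjusted p = 0.00825) and for PRIM1 (-1.03, limma adjusted p = 0.0347), both by the test of the difference itself. Outside the main measurement, the control probe set for 18S ribosomal RNA had a median signal of 8882.5 over the 7 lung lines, against 35.6 on the parental array. Its part in the lung comparison of the replication genes was not tested.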

How the results depend on the processing

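No member that passed a test had the opposite sign under any alternative run. For the 24 pairs of a member and a comparison that were followed singly (17 members), 383 alternatives left the call as it was, 15 added one and 22 ended one. Of 36 members, those passing in bone numbered 2, but 3 under trimmed-mean centring (CDC6, TK1 and MCM7), 4 under quantile normalisation (these and MCM6), 1 with no filter, and 0 to 2 when each line was left out in turn. In lung the count was 1, but 2 with log2(signal + 16), 5 under trimmed-mean centring, 4 under quantile normalisation, 3 with a filter on 10 arrays, 3 with a variance trend, 0 in a fit to the lung lines alone and 1 to 3 when each line was left out. Between organs it was 2, but 4 under trimmed-mean centring, 4 under quantile normalisation, 3 with a filter on 10 arrays, 1 with no filter and 1 to 4 when each line was left out. The members' median was 0.017 to 0.31 in lung and -0.40 to -0.10 between organs over the left-out lines, lowest in size without SCP26 in each, and -0.27 to -0.03 in bone. Between ploidy sublines it was -0.10 without the 1833 pair and 0.03 without the 4175 pair.

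Trimmed-mean centring moved the median of all genes between organs to -0.12, and the members' median relative to all genes, -0.33, cannot change with centring and was -0.41 under quantile normalisation. The level of the members in SCP6 was -0.20 under trimmed-mean centring and -0.18 under quantile normalisation (log2), and that of modal-ploid 4175 was 0.023 under quantile normalisation, from 0.02 and 0.24. With no block for the line of origin, the ploidy comparison also gave 0 members, as it did in all other alternatives run. With 1 array a line, 3 or 4 lines a group and 2 ploidy pairs, differences smaller than the intervals could not be detected, and the array sets run with the target organ, so levels of bone and lung lines cannot be compared. The cause of the changes listed was not tested.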
